A study of Mus musculus with 44 samples.

Results

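The Usp17l family comprises Usp17la, Usp17lb, Usp17lc, Usp17ld and Usp17le, which are 5 of the 35269 mRNA probes in the deposited table. Members were taken by symbol. Their transcripts were followed in 44 single two-cell mouse embryos on a C57Bl/6 background, collected from natural matings in 6 litters. The WT group held 14 Dppa2/4+/+ embryos of control females and WT males, in litters of 10 and 4. All other embryos came from Dppa2/4m- females, in which Zp3-Cre, active in growing oocytes, had deleted both genes, so that the maternal product was missing. WT males sired the 15 Dppa2/4+/- embryos of the HET1 group (7 and 8 per litter). Dppa2/4+/- males sired both the 5 Dppa2/4+/- embryos of the HET2 group (4 and 1) and the 10 Dppa2/4-/- embryos of the HOM group (3 and 7), and these groups shared 2 litters. Every other litter belonged to a single group, so a litter effect and a group effect cannot be told apart in a comparison with WT. Within the shared litters the authors had read the genotype from the Dppa2 and Dppa4 transcripts of each embryo. HOM embryos held at most 7 Dppa2 and 5 Dppa4 reads, and HET2 embryos of the same litters at least 19 and 27. HET1 embryos, whose genotype follows from the cross, held at least 11 and 3, and WT embryos at least 184 and 79. The Dppa4 reads of HOM and HET1 embryos thus overlapped.

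Deubiquitinases of the Usp17 type, first described as the DUB proteins of blood cells, are cysteine proteases that remove ubiquitin from other proteins. Their genes lie in clusters of similar copies. In mouse embryonic stem cells, Usp17l genes are counted among those of the 2C-like state, a rare state that resembles the two-cell embryo and in which the transcription factor Dux is active. Dppa2 and Dppa4 form a heterodimer that acts upstream of Dux in those cells, and the comparison of groups asks whether transcripts of this family differ when the maternal product, or both the maternal and the zygotic product, is missing.

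In the GENCODE annotation of GRCm38, all 5 genes are protein-coding and lie on chromosome 7. Usp17ld (103249737 to 103252505, reverse strand) and Usp17lc (103415072 to 103419880, forward strand) form one pair, 162566 bp apart. A stretch of 1348168 bp with 105 annotated genes separates that pair from Usp17le (104768049 to 104777470, reverse strand), Usp17lb (104840257 to 104842603, reverse strand) and Usp17la (104857009 to 104862667, forward strand). No annotated gene lies in the 14405 bp between Usp17lb and Usp17la. Gm25774, a miRNA gene, overlaps Usp17lc on the same strand. The deposited table gave the same coordinates for all 5 members.

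Sequences upstream of the RefSeq start (GRCm38.p6) were taken, and 4 of the 5 members were matched. They are shown because copies of one family that are read out together can be compared base by base. The RefSeq start of Usp17lc lies inside the GENCODE gene given above, so that its 250 bases do too. Those of Usp17la and Usp17lb overlap the start of the GENCODE gene, and those of Usp17ld do not. The 250 bases before the RefSeq start lie at chr7:104856766-104857015 (forward strand) for Usp17la, chr7:104842584-104842833 (reverse strand) for Usp17lb, chr7:103416446-103416695 (forward strand) for Usp17lc and chr7:103252506-103252755 (reverse strand) for Usp17ld. Each is written 5′ to 3′ on the strand of its gene, and capitals mark every TATAAA and every CCAAT or its reverse complement ATTGG:
Usp17la: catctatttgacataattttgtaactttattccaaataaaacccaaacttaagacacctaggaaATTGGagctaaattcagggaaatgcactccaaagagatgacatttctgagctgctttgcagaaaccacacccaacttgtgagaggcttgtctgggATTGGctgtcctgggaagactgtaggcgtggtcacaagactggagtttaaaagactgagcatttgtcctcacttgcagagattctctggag
Usp17lb: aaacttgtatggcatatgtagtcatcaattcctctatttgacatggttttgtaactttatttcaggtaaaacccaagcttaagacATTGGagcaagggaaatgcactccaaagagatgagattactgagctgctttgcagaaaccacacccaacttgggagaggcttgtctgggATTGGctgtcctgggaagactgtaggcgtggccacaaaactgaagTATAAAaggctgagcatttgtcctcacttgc
Usp17lc: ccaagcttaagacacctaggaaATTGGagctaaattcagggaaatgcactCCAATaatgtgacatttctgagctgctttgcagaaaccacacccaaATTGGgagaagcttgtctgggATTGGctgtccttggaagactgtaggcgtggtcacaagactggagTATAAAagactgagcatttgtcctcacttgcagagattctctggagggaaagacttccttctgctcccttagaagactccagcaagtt
Usp17ld: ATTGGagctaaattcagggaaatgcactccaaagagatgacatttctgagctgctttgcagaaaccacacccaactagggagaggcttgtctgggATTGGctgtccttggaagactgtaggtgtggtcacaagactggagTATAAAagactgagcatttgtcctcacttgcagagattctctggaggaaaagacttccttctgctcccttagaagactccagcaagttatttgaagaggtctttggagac

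The 4 sequences aligned with one another at an offset set by their annotated starts. Over the aligned part, identity ranged from 92.1% (164 of 178 bases, Usp17lb and Usp17lc) to 97.3% (181 of 186 bases, Usp17la and Usp17ld). A run of 29 bases, ctgagctgctttgcagaaaccacacccaa, was present in all 4. Counted from the RefSeq start, it began at position -141 in Usp17la, -126 in Usp17lb, -183 in Usp17lc and -205 in Usp17ld. TATAAA began at position -31 in Usp17lb, -88 in Usp17lc and -110 in Usp17ld, and was absent from the window of Usp17la. Over 32851 promoter windows of all genes, 12.4% held TATAAA and 33.8% held CCAAT on either strand in the same 250 bases. The other motifs searched on both strands were a consensus Dux motif, TGCACAC (a Zscan4 motif) and GGATTA (a homeobox motif). None of them was in these 4 windows, against 0.0304%, 3.67% and 6.25% of all windows. CpG dinucleotides numbered 1 in Usp17la, Usp17lb and Usp17lc and 0 in Usp17ld, where the median window held 6. A match or its absence describes these letters only.

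Coding sequences were close enough to bear on the counts. Usp17lc and Usp17ld were identical at 1609 of 1635 coding bases (98.4%), while the other pairs ranged from 90.7% to 94.5%. Of all 75-base words in the exons, the length of 1 read, 92.3% were unique to Usp17la among annotated transcripts, 85.1% to Usp17lb, 84.7% to Usp17le, 64.3% to Usp17lc and 56.6% to Usp17ld. Usp17lc and Usp17ld shared 831 words. Reads had been kept by the authors at a mapping quality of at least 20, a filter that removes most reads with more than one equal placement, so the levels of Usp17lc and Usp17ld rest on part of each transcript and their split is uncertain. Reads were counted without regard to strand, and each library is a whole embryo, in which fewer expressing cells and less RNA per cell cannot be told apart.

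The values are log2 RPM as deposited, that is reads scaled to the total of each library,, from which the reads behind each value could be recovered. Depth ran from 247667 to 3163026 total reads per embryo, with a median of 1770010 in WT, 528166 in HET1, 1108889 in HET2 and 803369 in HOM. Since a gene without reads is placed lower in a deeper library, differences were computed with every value below 1.86 on the log2 scale (3.63 RPM) raised to 1.86, the common floor. Of 8 two-cell markers, 4 had reads in every embryo and each of the 8 had reads in at least 22 embryos. Of 8 cumulus or granulosa cell markers, 1 reached 22 embryos (Amhr2, with reads in 43), Star had reads in 20 and 1, Fshr, had no read. The summed level of these markers spanned 11.4 to 79.1 RPM in WT, 2.04 to 86.5 in HET1, 8.12 to 32.6 in HET2 and 11.2 to 112 in HOM. Of 6 trophectoderm and later embryo markers, 2 had reads in at least 22 embryos (Gata4 in 44 and Gata3 in 25).

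Usp17lb and Usp17lc supplied most of the family's reads. Of 5839 family reads over all embryos, Usp17lb held 57.7% (95% Wilson interval 56.4 to 58.9, counting error only) and Usp17lc 30.6% (29.4 to 31.8), followed by Usp17ld with 5.36%, Usp17le with 3.72% and Usp17la with 2.69%. Usp17lb had reads in 44 of 44 embryos, between 3 and 220. Usp17lc had reads in 43 embryos, up to 180, and its only embryo without a read was from WT litter 1. Usp17ld had reads in 31 embryos, Usp17le in 30 and Usp17la in 27, and 3 or more reads in 26, 23 and 21.

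Per kilobase of exon, the median level was 33.7 RPM for Usp17lb (range 1.80 to 114, n = 44), 11.6 for Usp17lc (0 to 53.7), 1.52 for Usp17ld (0 to 16.3), 1.31 for Usp17le (0 to 7.91) and 0.654 for Usp17la (0 to 6.19). Usp17lb stood above Usp17lc in 41 of 44 embryos on this scale, and Usp17lc above Usp17ld in 42. The ranges of Usp17ld, Usp17le and Usp17la overlapped, with Usp17ld above Usp17le in 21 embryos and below it in 15, Usp17ld above Usp17la in 26 and below it in 9, and Usp17le above Usp17la in 25 and below it in 11. Divided instead by 1000 unique 75-base words, the medians were 40.8 RPM for Usp17lb and 18.9 for Usp17lc, and 2.79, 1.62 and 0.729 for Usp17ld, Usp17le and Usp17la.

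**Figure D1:**
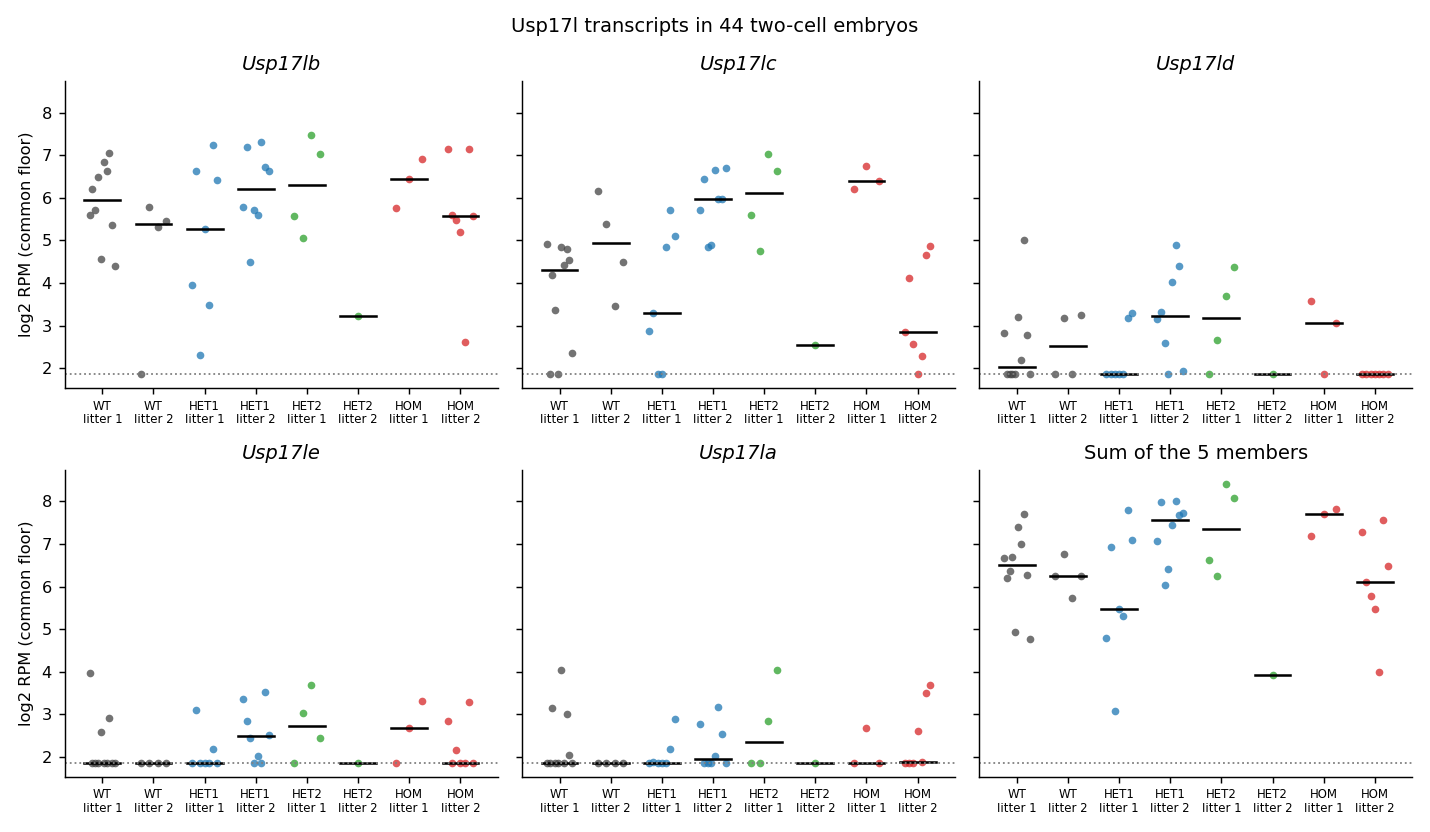
Level of each Usp17l member and of their sum (y axis, log2 RPM with the common floor) in every embryo, by group and litter. Points are embryos, black bars medians and the dotted line the common floor of 1.86. Usp17lc is high in HET1 litter 2 and in litter 1 of the heterozygous sires (HET2 litter 1 and HOM litter 1), and Usp17la, Usp17ld and Usp17le lie at or near the floor in many embryos.

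The groups did not separate in the level of any member. In WT, Usp17lb ranged from 2.81 to 133 RPM with a median of 50.4 (n = 14), in HET1 from 4.94 to 158 with a median of 55.0 (n = 15) and in HOM from 6.09 to 141 with a median of 51.2 (n = 10). The 5 HET2 embryos stood at 47.3, 33.4, 178, 131 and 9.27 RPM. The ranges of all 4 groups overlapped almost entirely. The log2 difference from WT was 0.26 (SE 0.54) in HOM, 0.13 (SE 0.48) in HET1 and 0.15 (SE 0.68) in HET2.

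Usp17lc ranged from 0 to 71.3 RPM in WT (median 21.8), from 2.77 to 104 in HET1 (median 34.4) and from 2.03 to 107 in HOM (median 21.3). The 5 HET2 embryos stood at 48.7, 27.1, 132, 98.8 and 5.79 RPM. Each group held embryos with a few RPM and embryos above 70 RPM. The log2 difference from WT was 0.21 (SE 0.61, adjusted p = 0.89) in HOM, 0.81 (SE 0.55, adjusted p = 0.41) in HET1 and 1.27 (SE 0.77, adjusted p = 0.65) in HET2, by limma with Benjamini-Hochberg adjustment over the 13338 genes tested.

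No member passed the threshold of 0.05 in these comparisons, nor did any at an unadjusted p under 0.05. The lowest unadjusted p of a member was 0.32 in HOM, 0.15 in HET1 and 0.11 in HET2 against WT. The background share of genes called was 0.045% in HOM, 6.51% in HET1 and 0.0375% in HET2 against WT, so 0 of 5 called members lies near the background. The differences of all 5 members ran from -0.38 to 0.26 in HOM, from -0.05 to 0.81 in HET1 and from 0.15 to 1.27 in HET2, while the median difference of all tested genes was 0.17, 0.10 and -0.01. The 3 comparisons share the WT embryos. limma voom on the recovered reads also called 0 of 5 in each. Standard errors of 0.48 to 0.77 for Usp17lb and Usp17lc leave room for changes of more than 1 on the log2 scale.

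HOM and HET2 embryos of the same litters differ, by their labels, only in the zygotic genotype. With litter in the model, the log2 difference of HOM from HET2 was 0.84 (SE 0.76) for Usp17lb and 0.56 (SE 0.61) for Usp17lc, and between -0.21 and 0.04 for the other 3 members. Without the single HET2 embryo of litter 2, they were 0.09 for Usp17lb and 0.44 for Usp17lc. None was called, the lowest unadjusted p was 0.28, and the background share was 0.015%. In litter 1, the 4 HET2 embryos held 48.7, 27.1, 132 and 98.8 RPM of Usp17lc and the 3 HOM embryos 73.8, 107 and 84.7. In litter 2, the single HET2 embryo held 5.79 RPM and the 7 HOM embryos held from 2.03 to 29.2 with a median of 7.17. The genotypes overlapped in litter 1, and in litter 2 the HET2 embryo lay within the range of the HOM embryos.

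**Figure D2:**
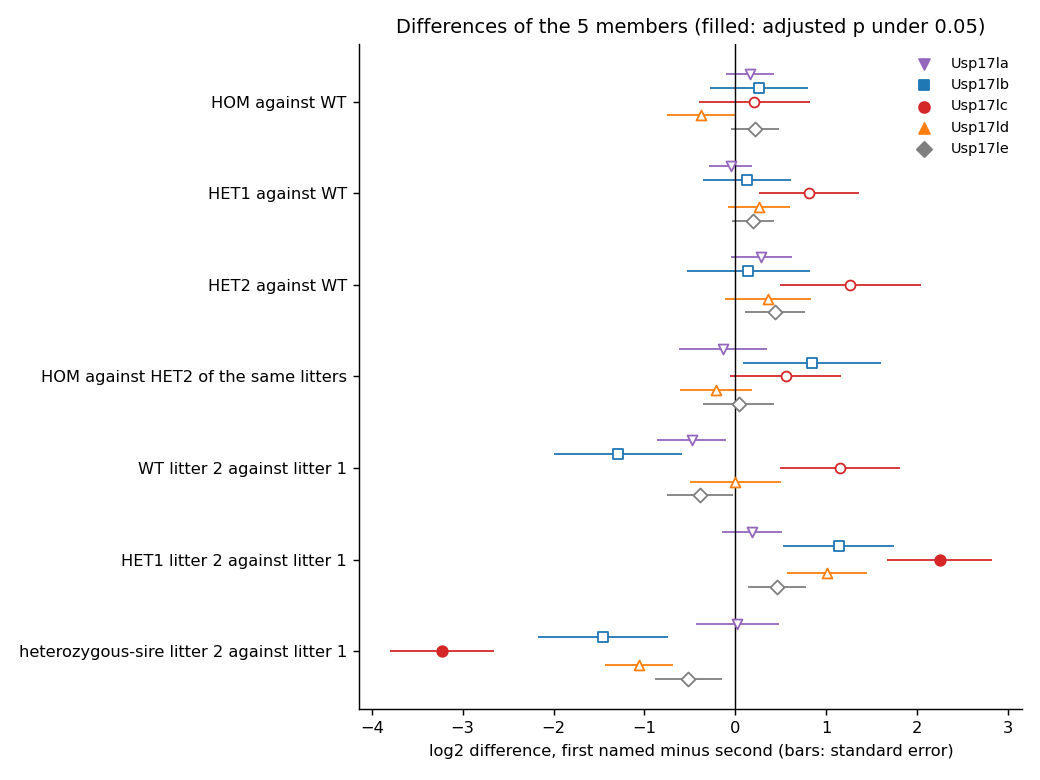
log2 difference (x axis) of each Usp17l member in the 7 comparisons, as the first named minus the second. Bars are standard errors and filled symbols mark an adjusted p under 0.05 in limma, which only Usp17lc reached, at 2.25 between the HET1 litters and -3.23 between the litters of heterozygous sires.

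On the log2 scale with the common floor, Usp17lc had the largest difference of the 5 members between the HET1 litters and between those of heterozygous sires. The floor limits Usp17ld, whose mean RPM changed by a larger factor than that of Usp17lc. From litter 1 to litter 2 of the heterozygous sires, mean RPM went from 9.17 to 0.651 for Usp17ld and from 81.7 to 12.2 for Usp17lc. Between the HET1 litters it went from 2.87 to 11.96 for Usp17ld and from 19.9 to 66.2 for Usp17lc. Among HET1 embryos, Usp17lc ranged from 2.77 to 52.7 RPM with a median of 9.86 in litter 1 (n = 7) and from 29.0 to 104 with a median of 63.0 in litter 2 (n = 8). The lowest embryo of litter 2 stood above 5 of the 7 embryos of litter 1. The log2 difference was 2.25 (SE 0.58, adjusted p = 0.0040, limma). Usp17lc was the only member called, where the background share was 21.9%. The other 4 members differed in the same direction, by 1.14 (SE 0.62) for Usp17lb, 1.01 (SE 0.44) for Usp17ld, 0.46 (SE 0.32) for Usp17le and 0.18 (SE 0.33) for Usp17la, none of them called. The median of all tested genes lay at -0.18. A share of 1 in 5 is close to the background of this comparison, in which a large part of the transcriptome differed between the litters.

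Among the litters of heterozygous sires the order of mating numbers was the opposite. Usp17lc ranged from 27.1 to 132 RPM with a median of 84.7 in litter 1 (n = 7) and from 2.03 to 29.2 with a median of 6.55 in litter 2 (n = 8). The litters overlapped only between 27.1 and 29.2 RPM. With genotype in the model, Usp17lc fell by 3.23 on the log2 scale from litter 1 to litter 2 (SE 0.58, adjusted p = 0.0072, limma), against a background share of 5.15%. It was again the only member called. Usp17lb differed by -1.46 (SE 0.72), Usp17ld by -1.06 (SE 0.37), Usp17le by -0.51 (SE 0.37) and Usp17la by 0.02 (SE 0.46). With the 10 HOM embryos alone the difference of Usp17lc was -3.14 and the adjusted p was 0.078 (limma), in a test with fewer samples. Total reads were higher in litter 1 than in litter 2 of the HOM embryos, with medians of 1203546 and 673837. With log2 total reads in the model, the Usp17lc difference was -3.18 (adjusted p = 0.011, limma) between these litters and 2.23 (adjusted p = 0.0039, limma) between the HET1 litters.

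Usp17ld, the closest copy of Usp17lc, had reads in fewer embryos of the litters with less Usp17lc, in HET1 and among the heterozygous sires. In litter 1 of the heterozygous sires it had reads in 7 of 7 embryos (median 8.31 RPM), and in litter 2 in 2 of 8, with 10 reads in all. In the HET1 litters it had reads in 3 of 7 and in 7 of 8 embryos. In the WT litters its mean log2 level was 2.53 in both, where that of Usp17lc was 3.71 and 4.87. These differences were not called on the common floor, which stands for 0.9 read in the shallowest and 11.5 reads in the deepest embryo. On the scale of log2(RPM + 1), Usp17ld was called as well, at 2.04 between the HET1 litters (adjusted p = 0.035, limma) and -2.58 between the litters of heterozygous sires (adjusted p = 0.027, limma). On that scale 3205 and 1017 of the 13338 genes were called.

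Between the WT litters no member was called (background share 1.75%), and the differences of Usp17lb and Usp17lc had opposite signs. Usp17lb ranged from 21.2 to 133 RPM in litter 1 (median 63.0, n = 10) and stood at 2.81, 54.9, 39.8 and 43.6 RPM in the 4 embryos of litter 2, a log2 difference of -1.29 (SE 0.70, adjusted p = 0.41, limma). Usp17lc ranged from 0 to 30.1 RPM in litter 1 (median 19.7) and stood at 71.3, 41.5, 11.0 and 22.4 in litter 2, a difference of 1.15 (SE 0.66, adjusted p = 0.44, limma). The WT litter 2 embryo with the lowest Usp17lb level of the WT group (2.81 RPM, 3 reads) had its highest Usp17lc level (71.3 RPM, 76 reads). Without this embryo the differences were -0.38 for Usp17lb and 0.73 for Usp17lc. Usp17le had no read in any of the 4 embryos of WT litter 2, where 3 reads would have stood at 1.00 to 3.54 RPM.

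The comparisons with WT moved when a litter was left out. Without HET1 litter 1, the Usp17lc difference of HET1 from WT was 1.86 (adjusted p = 0.022, limma, in a run that called 2563 of 13338 genes), and without HET1 litter 2 it was -0.39. Without litter 1 of the heterozygous sires, the Usp17lc difference of HOM from WT was -0.73, and without litter 2 it was 2.41, neither of them called. With only 2 litters per mating type, the embryos of a litter are siblings and the p-values measure the spread between embryos, not between litters.

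The relative share of the leading pair also varied between litters. Of the reads of Usp17lb and Usp17lc together, Usp17lc held a median of 44.8% in litter 1 of the heterozygous sires (range 41.1 to 57.7, n = 7) and 20.8% in litter 2 (4.84 to 44.4, n = 8). In HET1 it held a median of 28.6% in litter 1 (6.67 to 72.2, n = 7) and 43.3% in litter 2 (28.4 to 67.6, n = 8), and in the WT litters 18.5% (0 to 38.3, n = 10) and 38.5% (21.6 to 96.2, n = 4). Usp17lc had more reads than Usp17lb in 8 of 44 embryos, at least 1 of them in each group. In litter 1 of the heterozygous sires the shares lay close together, whereas in the other litters they spanned a wide range. The extremes of 6.67%, 72.2% and 44.4% come from embryos with 16, 18 and 13 family reads. This share was examined after the values had been seen and was not tested.

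**Figure D3:**
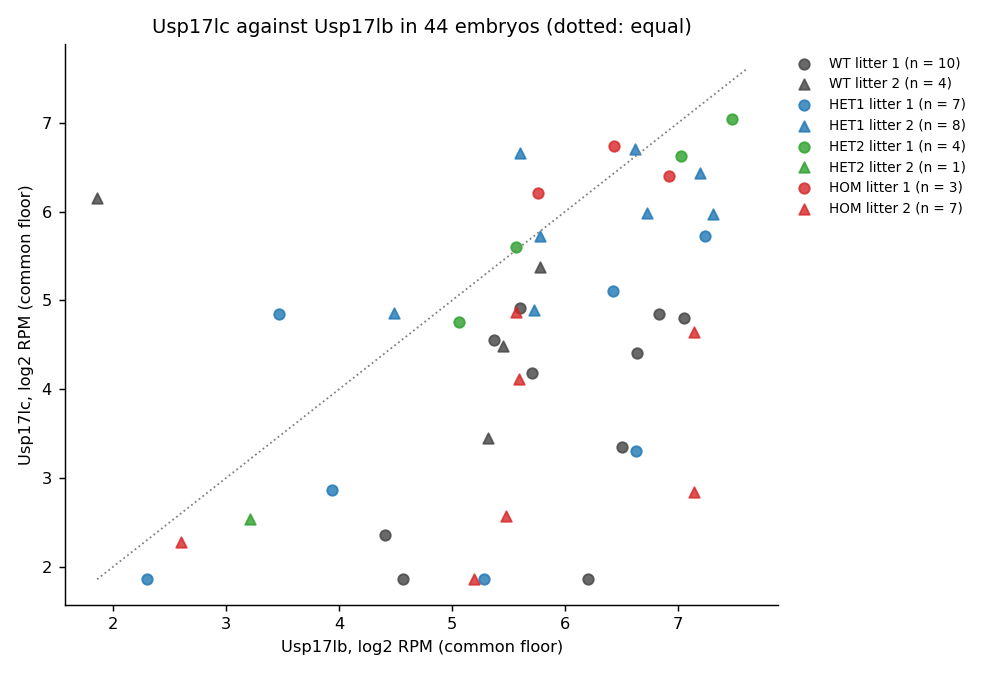
Usp17lc (y axis) against Usp17lb (x axis) in 44 embryos, both as log2 RPM with the common floor. Colours mark groups, circles litter 1 and triangles litter 2, and the dotted line marks equal levels. The Pearson correlation over the embryos was 0.44, and most embryos lie below the line.

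Members of the family varied together to a moderate degree. Across the 44 embryos, the Pearson correlation of log2 levels was highest for Usp17lc with Usp17ld (0.59, Spearman 0.64) and lowest for Usp17la with Usp17le (0.13, Spearman 0.18). Usp17lb correlated with Usp17lc at 0.44, and after the mean of each group in each litter had been removed at 0.40. For Usp17lc with Usp17ld the value within litters was 0.43. All points share the scaling to total reads, Usp17lc and Usp17ld share sequence, and members at the floor limit the correlations, which are given as a description.

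Summed over the 5 members, the family stood at a median of 79.7 RPM in WT (27.1 to 209, n = 14), 134 in HET1 (8.47 to 260, n = 15) and 117 in HOM (15.8 to 225, n = 10). The HET2 embryos stood at 98.8, 75.8, 342, 272 and 15.1 RPM. By litter, the medians fell into a higher set and a lower set. The 3 HOM embryos of litter 1 had a median of 209 RPM, HET1 litter 2 of 190 and HET2 litter 1 of 185. WT litters 1 and 2 stood at 91.8 and 76.3 RPM, HOM litter 2 at 68.6 and HET1 litter 1 at 44.4. The sum correlated only weakly with log2 total reads, at -0.22.

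Two-cell and 2C-like genes, a list of 28 of which 25 were tested, were high in the same litters. Their mean log2 level had a median of 5.31 in HET1 litter 2, 5.18 in HET2 litter 1 and 4.83 in HOM litter 1, and of 3.82 and 3.79 in the WT litters, 3.49 in HET1 litter 1 and 3.30 in HOM litter 2. Between the HET1 litters 17 of the 25 rose and 0 fell (background share 21.9%, median difference 2.07, all genes -0.18), and between the litters of heterozygous sires 0 rose and 8 fell (background share 5.15%, median -1.62, all genes -0.00275). Against WT, 5 of 25 rose in HET1 (Tcstv1, Sp110, Tmem92, Gm4340 and Gm20767), where the background share was 6.51%, and 0 passed the test in HET2 and in HOM. With litter as a random effect, 0 of all 13338 genes were called in HET1 against WT (limma, 1010 at an unadjusted p under 0.05), so that these 5 calls were lost. Sp110, a nuclear body protein and the most abundant of the list, stood at 8.12 ± 0.77 (SD, n = 14) in WT and 8.78 ± 0.48 (SD, n = 10) in HOM on the log2 scale. B020004J07Rik stood at 6.49 ± 0.97 (SD, n = 14) in WT and 5.94 ± 1.51 (SD, n = 10) in HOM. The part of these genes, or of the stage they mark, in the Usp17l differences was not tested.

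**Figure D4:**
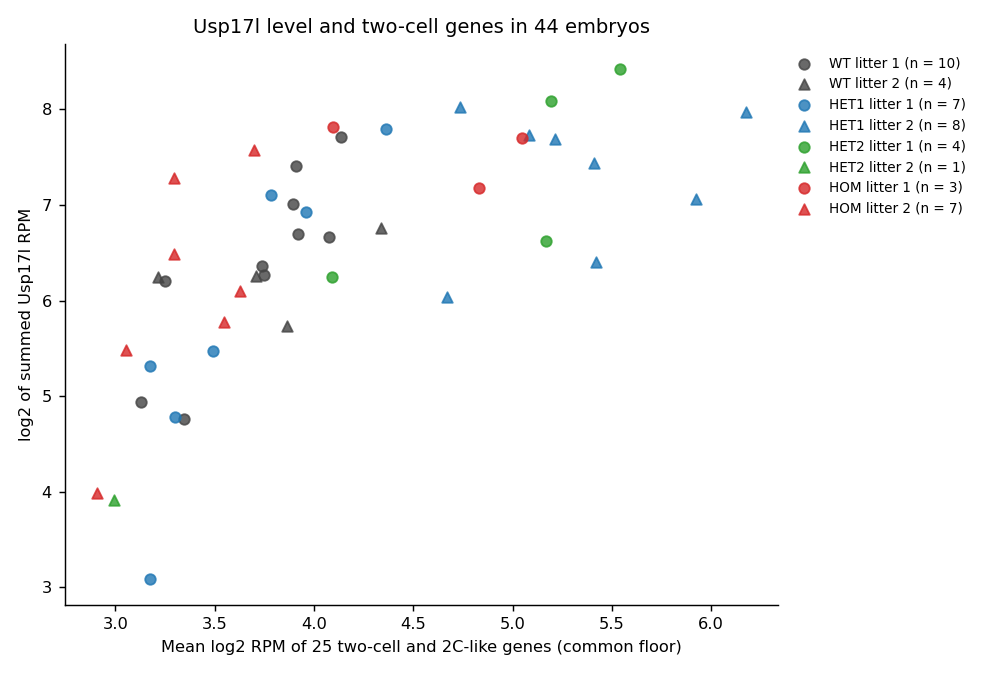
Summed Usp17l level (y axis, log2 of the RPM of the 5 members) against the mean log2 RPM of 25 two-cell and 2C-like genes (x axis) in 44 embryos. Colours mark groups, circles litter 1 and triangles litter 2. The Pearson correlation was 0.69 over all embryos and 0.60 after litter means had been removed. The embryos of HET1 litter 2 and most of those of litter 1 of the heterozygous sires lie to the right.

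The 10 genes whose levels followed the summed family most closely were taken from 6917 genes whose log2 RPM averaged 3 or more, among which the median Pearson correlation was 0.08. They were Nup62 (0.83), a nucleoporin, Tcstv3 (0.81), a two-cell-stage gene, Gm49030 (0.80), P4ha2 (0.80), a collagen prolyl hydroxylase subunit, Gm5157 (0.80), Zfp352 (0.79), a zinc finger gene of the two-cell stage, Ercc4 (0.79), a nuclease of DNA excision repair, C86187 (0.78), Tcl1b1 (0.78), a member of the Tcl1 family, and Adh5 (0.78), a class III alcohol dehydrogenase. After litter means had been removed, their correlations ran from 0.70 for Adh5 to 0.81 for Ercc4. Of the 10, 3 lie on chromosome 7, the nearest to a member being C86187 at 56.3 Mb, and 2 (Tcstv3 and Zfp352) belong to the two-cell list. Between the HET1 litters 8 of the 10 rose (background share 21.9%), and between the litters of heterozygous sires 5 fell (background share 5.15%), which the choice of the genes favours, since they were picked for following the family over these same embryos. Tcl1b1, for example, differed by 2.78 (SE 0.48) and by -2.73 (SE 0.48). Tcstv3 differed by 2.70 (SE 0.60) and -2.98 (SE 0.67), and Zfp352 by 2.24 (SE 0.57) and -2.46 (SE 0.72), of which the last was not called.

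Among 51 other ubiquitin-specific proteases with values, 49 were tested, with a median difference between the HET1 litters of -0.11, where 5 rose and 7 fell, a share close to the background of 21.9%. Between the litters of heterozygous sires 0 rose and 4 fell (background share 5.15%). Usp9x, an X-linked deubiquitinase and the most abundant at 9.56 ± 1.07 (SD, n = 14) in WT, rose by 0.91 (SE 0.33) between the HET1 litters and differed by -1.13 (SE 0.20) between the litters of heterozygous sires, where it was called. Usp15 (1.08, SE 0.28, and -1.19, SE 0.23) and Usp46 (1.04, SE 0.29, and -1.36, SE 0.19) were called in both as well. Usp47 was called only in the second of these comparisons. Usp13, Usp28 and the 7 that fell between the HET1 litters were called only in the first. Usp34 and Usp1, a deubiquitinase of the DNA damage response, stood at 9.55 ± 0.39 and 9.34 ± 0.40 (SD, n = 14) in WT. Against WT, 3 rose in HET1 (Usp21, Usp28 and Usp30), a share close to the background of 6.51%, and 0 passed in HET2 and in HOM. These 3 calls were also lost with litter as a random effect.

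Proteins reported as substrates of human USP17 were represented by 9 genes, all of them tested. None was called in HOM, HET1 or HET2 against WT, with medians of 0.50, 0.23 and 0.33. Ccna2, which encodes cyclin A2, was the most abundant at 9.34 ± 0.30 in WT (SD, n = 14) and 9.33 ± 0.28 in HOM (SD, n = 10). Between the HET1 litters Hdac2, a histone deacetylase, rose by 1.18 (SE 0.42). Between the litters of heterozygous sires no gene of the list was called.

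Within 500 kb of a member lie 114 other genes of the table, 96 of them olfactory receptor genes. Of the 114, 90 had no read in any embryo and 4 passed the filter for testing (Gm45272, Olfr665, Olfr667 and Trim30a). Trim30a, the most abundant of them, stood at 3.09 ± 1.49 (SD, n = 14) in WT. No neighbour was called against WT or between the litters of heterozygous sires. Between the HET1 litters Olfr667 rose by 0.90 (SE 0.29, adjusted p = 0.020, limma), in the same direction as Usp17lc, 1 call among 4 genes where the background share was 21.9%.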

How the data were processed

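Single-embryo libraries from 44 two-cell embryos were analysed, with group and litter taken from the labels. The authors trimmed reads (Trim Galore 0.6.5, cutadapt 2.3), mapped them to GRCm38 with HISAT2 2.1.0, kept a MAPQ of at least 20 and quantified 35269 probes in SeqMonk without strand. The deposited values are log2 RPM, in which a gene without reads holds the value of 0.9 read. Taking that value as the unit gave the reads behind each entry, and 99.9997% of entries came out whole to within 0.05 read. Library totals ran from 247667 to 3163026. About 3 reads are needed to tell a gene from 0, and intervals cover counting error only.

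Values under 1.86 were set to 1.86. The 13338 genes averaging 0 or more (log2 RPM) and above the floor in at least 5 embryos entered limma 3.58.1 in R 4.3.3 (a linear model per gene, moderated with an intensity trend), with Benjamini-Hochberg adjustment at 0.05. WT comparisons used a model of 4 groups, WT and HET1 litters a model of groups by litter, and both other comparisons the 15 embryos of heterozygous sires. The test was also run on simulated counts without litter effects. The outcome is not reported here, and such a run cannot show how the test behaves where litter and group coincide. Negative binomial tests were not run on log2 values. Labels do not tie embryos of different crosses to the same animals.

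Named genes were all members, the 10 genes with the highest Pearson correlation with the summed family (genes averaging 3 or more, both with the floor), the 3 most abundant members of each list, and genes behind counts of 5 or fewer; some genes that this rule names are not reported here. Usp15, Usp46, Tcl1b1, Tcstv3 and Zfp352 were given values after these had been seen. Members and lists were chosen with earlier results of these data known. Shares of the family total were taken over pooled reads, and the share of Usp17lc in the reads of Usp17lb and Usp17lc over every embryo, also those with under 20 family reads. Promoter sequences come from RefSeq, aligned with Biopython 1.88, positions from GENCODE. Figures were drawn with matplotlib 3.10.9. Alternatives covered the floor, filter, scaling, weights, depth, litter and mating number, and left-out litters or embryos.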

Additional observations from a re-analysis of the deposited data

Results flagged for a closer look

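Dixon's test for a single value far from its group was applied to each member and to their sum in 45 sets of 4 to 10 embryos (a group, or a group within a litter), and marked 7 times, with 6 distinct values. For values that follow a normal distribution, chance marks about 1 in 20 such sets. Many values of Usp17la, Usp17ld and Usp17le were set to the floor, so that this rate does not hold for them. Sets of a group and of its litter share embryos. All values are log2 RPM with the common floor.

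Low values of Usp17lb were marked in 2 embryos. A HOM embryo of litter 2 (embryo h, 5 reads) stood at 2.61, both among the 10 HOM embryos and among the 7 of its litter, where the others ranged from 5.19 to 7.14. A WT embryo of litter 2 (embryo k, 3 reads) stood at 1.86, where the other 3 ranged from 5.31 to 5.78.

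High values were marked for the members with few reads. Usp17ld stood at 5.02 in a WT embryo of litter 1 (embryo h, 52 reads), against at most 3.21 in the others of that litter. Usp17le stood at 3.97 in another (embryo a, 47 reads), against at most 2.90, and at 3.11 in a HET1 embryo of litter 1 (embryo b, 7 reads), against at most 2.18. Usp17la stood at 2.88 in a HET1 embryo of litter 1 (embryo g, 3 reads), against at most 2.18. Embryos a, b and f of that litter also held 3 reads each. With equal reads, these values differ only by the library total (407398 in g, 663861 in f).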

How the results depend on the processing

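The Usp17lc differences between the HET1 litters and between the litters of heterozygous sires kept their sign in 47 of 47 alternatives and passed the threshold in 46, the exception being the HOM embryos alone (-3.14, 0 members called). Leaving out each embryo in turn gave 1.95 to 2.60 between the HET1 litters, with 1 or 2 members called, and -3.42 to -3.06 between the litters of heterozygous sires. Usp17ld was also called, making 2 members, with embryos re-centred on their median (1.21) and on log2(RPM + 1) (2.04) between the HET1 litters, with 0.78 to 1.21 over left-out embryos, and with voom (-3.11) and log2(RPM + 1) (-2.58) between the litters of heterozygous sires. Leaving out single embryos and the covariate there were chosen after seeing the data, as was the test of HOM embryos alone.

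Against WT, the members called stayed at 0 in HOM and HET2 in every alternative and at 0 in HET1 but for the run without HET1 litter 1 (1, where 2563 of all 13338 genes were called). With the mating number as a replicate block, which does not pair animals, 0 members were called and the Usp17lc differences were 0.11, 0.75 and 1.29 in HOM, HET1 and HET2. Uncalled differences changed sign as follows, the cause not being tested. With re-centred embryos Usp17lb was -0.022 (HOM) and -0.027 (HET1), and Usp17lc -0.053 (HOM). For Usp17lb, array weights gave -0.18 (HET1) and -0.29 (HET2), voom -0.13 and -0.10, and the depth covariate -0.28 (HET1). Over left-out litters or embryos, Usp17lb ran from -0.11 to 1.18 (HOM), -0.48 to 1.05 (HET1) and -2.31 to 1.07 (HET2), and Usp17lc from -0.73 to 2.41, -0.39 to 1.86 and -1.51 to 1.96. Without the litter term Usp17lc was -1.06 between HOM and HET2. Of 384 alternative values of Usp17la, Usp17ld and Usp17le, 49 changed sign and 6 were called. A filter at a mean of 3 left only Usp17lb and Usp17lc in the test.

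Over all genes, re-centring moved the calls from 861 higher and 2059 lower to 1380 and 1383 between the HET1 litters, from 490 and 378 to 446 and 662 in HET1 against WT, and from 3 and 2 to 5 and 2 in HET2 against WT. In HET1 against WT, the 868 calls became 0 with litter as a random effect or with the depth covariate, and 5 without HET1 litter 2. Over left-out embryos, the 687 calls between the litters of heterozygous sires ran from 177 to 946. The 234 calls between the WT litters ran from 49 to 543, and the 2920 between the HET1 litters from 2383 to 3062. The background shares move with these counts. By Spearman's rho, 6 of the 10 genes most like the family were shared, and 8 without the common floor. Depth limits Usp17la, Usp17ld and Usp17le most: 3 reads correspond to between 0.948 and 12.1 RPM.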
